A study of Rattus norvegicus with 24 samples.

Results

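The 8 genes described here encode cytochrome P450 enzymes of rat liver whose transcripts follow the sex-specific pattern of growth hormone secretion: Cyp2c11, Cyp2c12, Cyp2c13, Cyp2c7, Cyp2c22, Cyp2a1, Cyp2a2 and Cyp3a2. They were taken by symbol from the gene tables, and all 8 were found among the 15319 genes measured in each library. The liver RNA came from 24 Sprague-Dawley rats, an outbred stock, in 4 groups of 6: sham-exposed females, females exposed to PCB 52, sham-exposed males and males exposed to PCB 52. PCB 52 is a polychlorinated biphenyl with 4 chlorine atoms per molecule, found in indoor air. It was given by nose-only inhalation of filtered air led over glass beads coated with it (12 L/min), for 4 hours a day over 28 days. Rats were assigned at random to sham or PCB 52, and the labels do not say what the sham groups breathed. Females were 42 days old and males 39 days old at the first exposure, and each sex was deposited as a table of its own. Sex, table and starting age therefore cannot be told apart. Each library came from 1 animal, with no pooling, and the labels name no engineered allele.

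Growth hormone reaches the liver of the adult male rat in separated pulses and that of the female in a more continuous flow. In hepatocytes the hormone binds its receptor and activates JAK2 and STAT5B, and the liver-enriched factors HNF6, HNF4A, FOXA and C/EBP act at the same genes. CYP2C11, the classical male enzyme, hydroxylates testosterone and xenobiotics. CYP2C12, the classical female enzyme, hydroxylates steroid sulfates. P450 enzymes of this kind are known to oxidise foreign compounds, PCBs among them.

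Most of the members are physical neighbours. In the order of protein-coding genes in RefSeq (assembly GRCr8), Cyp2a1 and Cyp2a2 had 0 genes between them, and so had Cyp2c12 and Cyp2c13, and Cyp2c13 and Cyp2c22. These genes, with Cyp2c11 and Cyp2c7, lie on chromosome 1, and Cyp3a2 lies on chromosome 12. RefSeq windows around the annotated start were matched for 7 of the 8 members, all but Cyp2a2. Below are the 250 bases before the start, 5′ to 3′ on the gene's own strand, of a pair of neighbours with opposite patterns (Cyp2c12, female, and Cyp2c13, male) and of another female and male member (Cyp2c7 and Cyp2c11). Capitals mark matches to ATCAAT (the HNF6 core), TGTTTAC (FOXA) or TTGCNNAA (C/EBP), each searched on both strands. The Cyp2c12 stretch is chr1:248677035-248677284 on the minus strand, Cyp2c13 chr1:248787189-248787438 on the minus strand, Cyp2c7 chr1:247966144-247966393 on the plus strand and Cyp2c11 chr1:246174966-246175215 on the plus strand, all GRCr8.
Cyp2c12: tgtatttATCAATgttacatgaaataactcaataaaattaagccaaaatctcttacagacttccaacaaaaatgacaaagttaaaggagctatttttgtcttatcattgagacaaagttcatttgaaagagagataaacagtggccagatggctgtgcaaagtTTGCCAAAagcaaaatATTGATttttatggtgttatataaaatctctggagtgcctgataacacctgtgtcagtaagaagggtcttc
Cyp2c13: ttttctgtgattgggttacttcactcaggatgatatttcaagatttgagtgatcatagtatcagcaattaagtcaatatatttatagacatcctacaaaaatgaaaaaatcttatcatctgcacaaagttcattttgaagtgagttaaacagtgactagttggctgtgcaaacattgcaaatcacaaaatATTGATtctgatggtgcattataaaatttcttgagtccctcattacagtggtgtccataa
Cyp2c7: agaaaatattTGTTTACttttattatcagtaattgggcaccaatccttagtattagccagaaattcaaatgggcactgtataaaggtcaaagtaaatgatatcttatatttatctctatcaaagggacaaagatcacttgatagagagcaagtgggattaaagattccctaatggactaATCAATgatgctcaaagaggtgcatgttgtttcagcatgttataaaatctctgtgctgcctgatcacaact
Cyp2c11: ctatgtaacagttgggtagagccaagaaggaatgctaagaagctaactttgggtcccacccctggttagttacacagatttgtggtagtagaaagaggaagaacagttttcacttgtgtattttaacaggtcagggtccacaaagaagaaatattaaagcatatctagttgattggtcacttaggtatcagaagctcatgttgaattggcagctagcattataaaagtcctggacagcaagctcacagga

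The windows of Cyp2c12 and Cyp2c13 were the most alike of the 21 pairs, with 218 identical bases among 264 aligned (82.6%). The other 20 pairs had 86 to 194 identical bases (68.4% to 78.5% of those aligned, since the alignment allowed gaps). Cyp2a1 and Cyp3a2, on different chromosomes, reached 78.5% (161 of 205 aligned). No level for unrelated windows was computed to set beside these shares. The HNF6 core from base -71 to -66 of Cyp2c12 aligned with the match from -60 to -55 of Cyp2c13, both on the reverse strand, so the female and the male neighbour share it. Cyp2c12 held a second HNF6 core, from -243 to -238, whose aligned place in Cyp2c13 was no match. In Cyp2c7 the core lay from -71 to -66 on the forward strand.

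In windows from 250 bases before the start to 50 from it, the HNF6 core was found in 3 of the 7 members and in 7.87% of 27457 RefSeq windows. The FOXA motif was found in 3 members (Cyp2c7, Cyp2c22 and Cyp3a2) and in 3.76% of all windows. The C/EBP motif was found in 3 members (Cyp2c12, Cyp2c22 and Cyp3a2) and in 10.5% of all. The HNF4A motif CAAAGTCCA was found in Cyp3a2, from -97 to -89, and in 0.375% of all. TTCNNNGAA, the motif of STAT5 that BCL6 also binds, was found in 0 of the 7 members and in 8.68% of all, so these letters are not in these windows. A match is a run of letters and was not tested as a binding site.

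**Figure D1:**
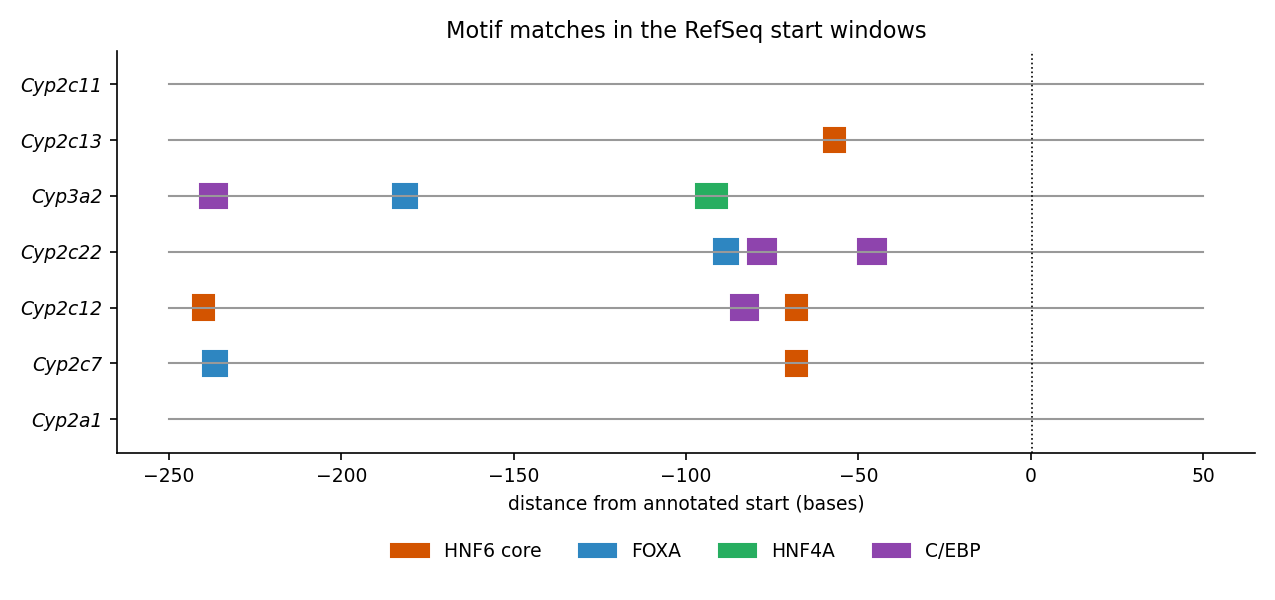
Position of each motif match in the RefSeq windows of 7 members, in bases from the annotated start (dotted line); each coloured block is 1 match on either strand. Cyp2c12 and Cyp2c7 carry an HNF6 core at -71 to -66 and Cyp2c13 at -60 to -55, whereas Cyp2c11 and Cyp2a1 carry no match.

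Library totals ran from 6994832 to 9185511 counts, so 1 count was worth 0.109 to 0.143 CPM (counts per 1e+06 library counts). Summed hepatocyte markers (albumin, transthyretin and 6 others) were at 154384 to 195814 CPM in all libraries. Summed macrophage markers, all 8 measured, were at 510 to 774 CPM in females and 425 to 529 in males, and their part in the sex differences below was not tested. In bulk liver, fewer cells of a type and less RNA per cell cannot be told apart.

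Among the male-pattern genes, Cyp2c11 was high in every male and at a few counts in most females. Its lowest, median and highest levels were 4666, 4881 and 5337 CPM in sham males and 4708, 5678 and 6623 in exposed males. In sham females they were 0.113, 0.776 and 2.89 CPM (1 to 23 counts), and in exposed females 0.112, 1.12 and 9.46 CPM (1 to 78 counts). Every male lay above every female, and the female minus male log2 difference was -12.26 ± 0.61 (SE) in sham and -11.28 ± 0.57 in exposed rats.

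Cyp2c13, which encodes another male steroid hydroxylase, had the same form. Sham males were at 1494, 1633 and 1806 CPM (lowest, median, highest) and exposed males at 1391, 1968 and 2395. Females of both groups had 1 to 9 counts, up to 0.683 CPM in sham and 1.15 in exposed animals. The sexes did not overlap, with log2 differences of -11.69 ± 0.24 in sham and -11.26 ± 0.23 in exposed rats. Reads of near-identical P450 genes can be split by the counting, which is not given in the sources used here. In the same female libraries the adjacent Cyp2c12 drew 52540 to 86940 counts.

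Cyp3a2, a male-pattern testosterone hydroxylase and the member on another chromosome, ranged from 1496 to 1962 CPM in sham males (median 1726) and from 1464 to 1900 in exposed males (median 1648). Sham females were at 1.69, 3.46 and 5.14 CPM and exposed females at 3.60, 4.86 and 7.77, which is 15 to 64 counts, more than 0 in every female. The sex difference was -9.00 ± 0.20 in sham and -8.33 ± 0.20 in exposed rats.

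Cyp2a2, a male testosterone hydroxylase next to the female-pattern Cyp2a1, was at 444, 478 and 563 CPM in sham males and 483, 524 and 615 in exposed males. Sham females were at 0.452, 1.31 and 7.78 CPM. Exposed females were at 0 to 2.94 CPM (median 0.465), with 1 library at 0. Cyp2a2 and Cyp3a2 in females did not keep the proportion to Cyp2c11 that they had in males. For each count of Cyp2c11, summed over the group, sham males had 0.100 counts of Cyp2a2 and 0.350 of Cyp3a2, sham females 2.31 and 3.37, and exposed females 0.386 and 2.28. Single animals weighed on the female values. Animal 14 held 78 of the 114 Cyp2c11 counts of exposed females, and animal 10 held 62 of the 118 Cyp2a2 counts of sham females. Over single females the Cyp2a2 value ran from 0 to 24, on 1 to 78 counts of Cyp2c11.

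Cyp2c22 was the male-pattern member with the smallest sex difference. Sham males were at 659, 717 and 1127 CPM and exposed males at 609, 839 and 1041. Sham females were at 264, 408 and 627 CPM and exposed females at 349, 442 and 533. The sexes did not overlap within sham or within exposed rats. Across treatments they did: a sham female (animal 2, 627 CPM) lay above an exposed male (animal 17, 609 CPM). The difference was -0.86 ± 0.19 in sham rats (edgeR quasi-likelihood test, adjusted p = 0.00182) and -0.96 ± 0.19 in exposed rats (edgeR, adjusted p = 6.12e-04), in either case 6 of 6 females below the male mean.

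Cyp2c12 was the female-pattern member with the largest sex difference and was present in every male. Sham females were at 6758, 7402 and 8752 CPM and exposed females at 6507, 10071 and 10840. Sham males were at 27.7, 80.4 and 143 CPM (226 to 1165 counts) and exposed males at 40.1, 68.4 and 95.05. The log2 difference was 6.57 ± 0.32 in sham and 7.08 ± 0.33 in exposed rats. In sham males the highest library was 5.17 times the lowest. The coefficient of variation there was 50.6%, against 9.98% in sham females and 13.9% for the median gene in sham males.

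Cyp2c7, a retinoid hydroxylase, was high in females and also present in quantity in males. Sham females were at 8137, 9152 and 10215 CPM and exposed females at 7323, 9208 and 12422. Sham males were at 1234, 1658 and 1865 CPM and exposed males at 1167, 1819 and 2523. The sex difference was 2.46 ± 0.16 in sham and 2.38 ± 0.15 in exposed rats. Cyp2a1, a steroid 7-alpha hydroxylase, was likewise graded. Its levels were 458, 504 and 606 CPM in sham females, 330, 480 and 531 in exposed females, 96.9, 131 and 171 in sham males and 114, 147 and 159 in exposed males. Its sex difference was 1.99 ± 0.13 in sham and 1.67 ± 0.13 in exposed rats. No female of either gene lay within the male range.

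**Figure D2:**
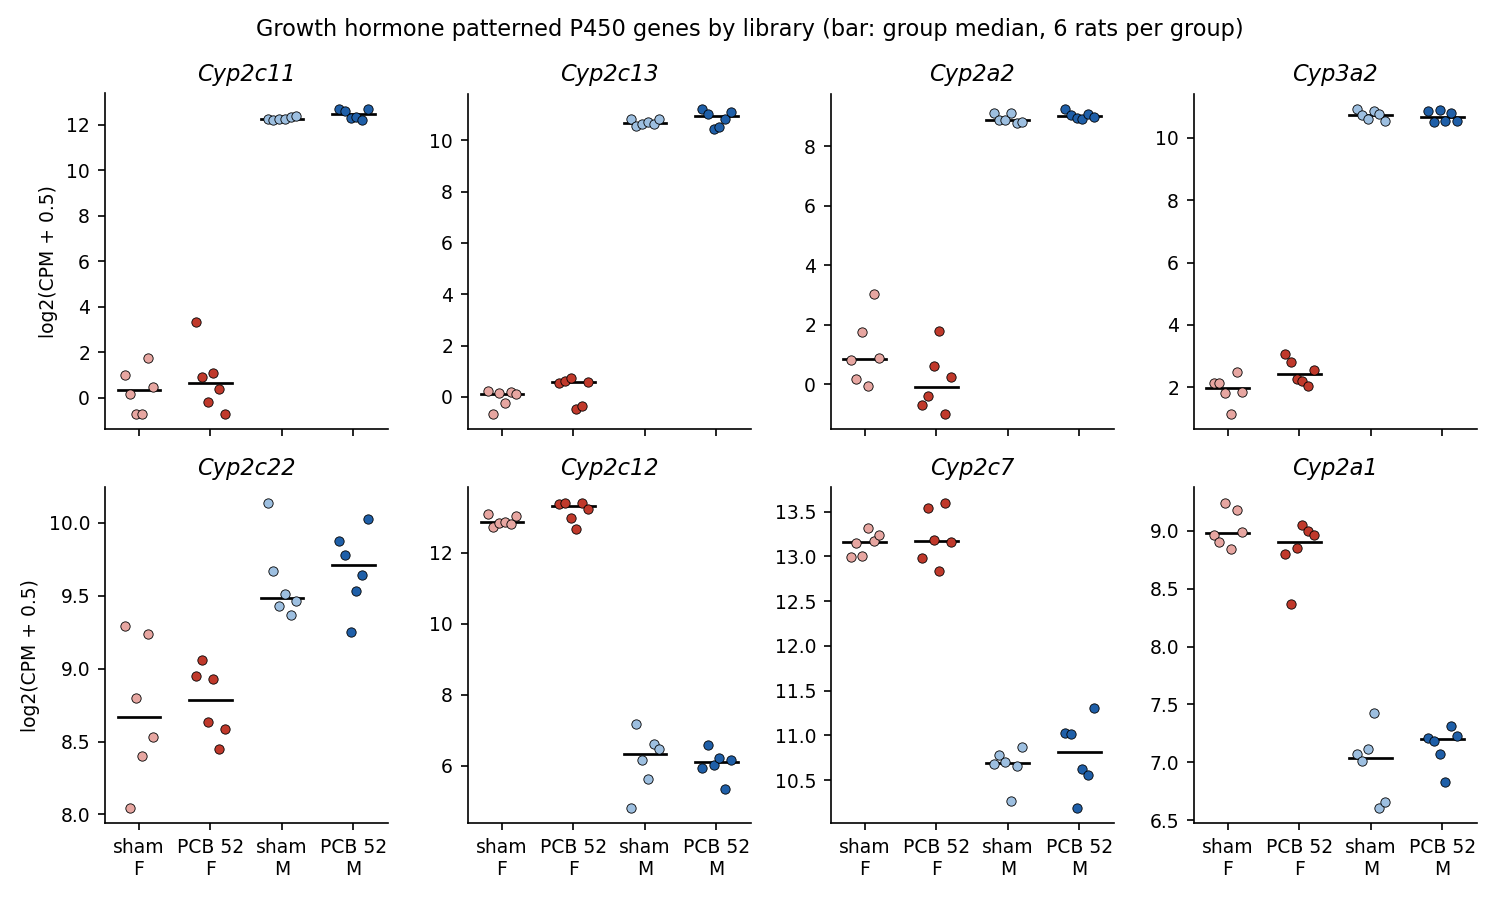
Level of each member in every library, as log2(CPM + 0.5), in sham and PCB 52 females (F) and males (M); each point is 1 rat, the bar is the group median and each panel has its own vertical scale. Males and females are far apart for Cyp2c11, Cyp2c13, Cyp2a2, Cyp3a2 and Cyp2c12, closer for Cyp2c7 and Cyp2a1, and closest for Cyp2c22.

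All 8 members passed the sex test (edgeR, adjusted p below 0.05) in sham and in exposed rats, 3 higher and 5 lower in females. Among all 10535 genes, 20.3% passed in sham rats (10.7% higher, 9.62% lower) and 19.9% in exposed rats (10.1% higher, 9.73% lower). All 8 also had sexes that did not overlap within each treatment, against 11.5% of all genes in sham and 9.84% in exposed rats. The members are known for their sex pattern, so these counts check the labels and are no separate result.

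The balance of the 2 patterns was taken per library as the log2 ratio of summed CPM of the 5 male-pattern to the 3 female-pattern members. It ran from -5.93 to -4.77 in sham females, from -6.07 to -4.86 in exposed females, from 2.17 to 2.74 in sham males and from 2.11 to 2.79 in exposed males. Every female was thus below 0 and every male above it. The 8 genes together took 1.66% to 1.89% of all counts in sham females, 1.49% to 2.41% in exposed females, 1.11% to 1.21% in sham males and 1.08% to 1.46% in exposed males. The shares thus spanned a wider range in both exposed groups.

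**Figure D3:**
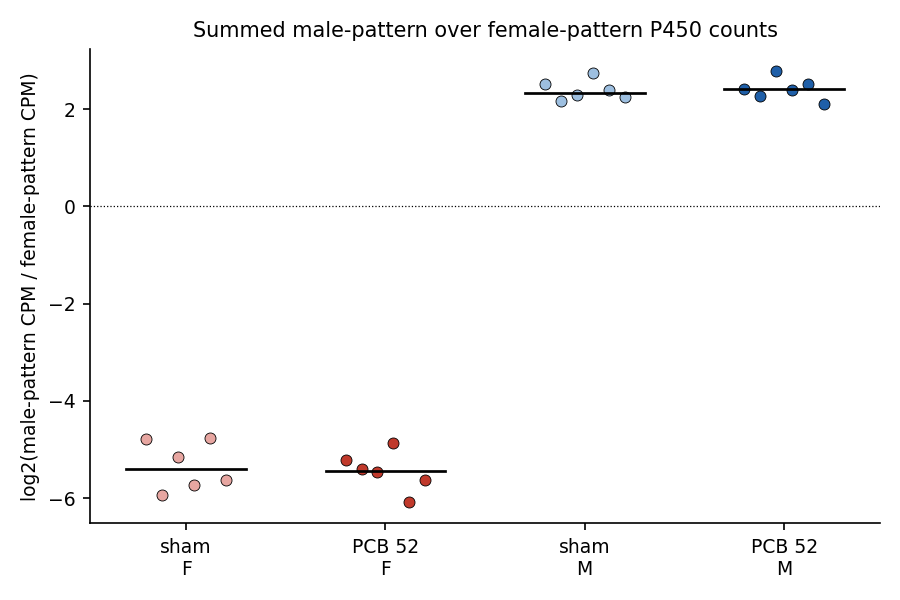
Summed CPM of the 5 male-pattern members over that of the 3 female-pattern members in each library, on a log2 scale; points are rats and bars are group medians. All females lie between -6.07 and -4.77 and all males between 2.11 and 2.79, in sham and PCB 52 groups alike.

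PCB 52 exposure was compared with sham within each sex. In females 0 of the 5 members tested passed at an adjusted p of 0.05 (edgeR), against 0% of 10251 genes. At an unadjusted p below 0.05 there were 2 of 5, Cyp2c12 and Cyp3a2, against 9.96% of genes. Cyp2c11, Cyp2c13 and Cyp2a2 were below the count filter of the female table, and their values come from the fit of all 24 libraries. In males 0 of the 8 members passed, against 0% of 10180 genes. There 1 of 8, Cyp2c11, had an unadjusted p below 0.05, against 5.75% of genes. DESeq2 and limma-voom also called 0 members in either sex, and for 0 members were exposed and sham ranges separate (0.332% of genes in females, 0.236% in males).

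In females, 4 of the 6 exposed animals had Cyp2c12 above the highest sham animal (8752 CPM), and animal 20, at 6507 CPM, lay below the lowest. The log2 difference was 0.30 ± 0.13 (95% interval 0.03 to 0.58, edgeR unadjusted p = 0.0343, adjusted p = 0.484), and 5 of 6 exposed females exceeded the average sham level. Without animals 13 to 16, all of them exposed, the difference was 0.20 ± 0.14. Among the females these are animals 14 and 16, and no litter or batch is named for them. For Cyp3a2 all 6 exposed females lay above the sham mean of 3.44 CPM, although the ranges overlapped. The difference was 0.64 ± 0.25 (95% interval 0.12 to 1.16, edgeR adjusted p = 0.440), and 0.35 ± 0.25 without animals 13 to 16. An exact two-sided permutation test of Cyp3a2 over all splits of the 12 females gave p = 0.0411, unadjusted. The same permutation test of Cyp2c12 gave p = 0.0714, unadjusted.

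The other members tested in females had intervals that included 0. Cyp2c7 differed by 0.10 ± 0.13 (95% interval -0.17 to 0.37), Cyp2a1 by -0.16 ± 0.11 (-0.39 to 0.07) and Cyp2c22 by -0.0033 ± 0.20 (-0.44 to 0.43). Of the members with few counts, Cyp2a2 differed by -1.39 ± 0.65 (95% interval -2.74 to -0.03, edgeR unadjusted p = 0.0451, adjusted p = 0.438). The exact two-sided permutation test of Cyp2a2 over the females alone gave p = 0.143, unadjusted. Cyp2c13 differed by 0.64 ± 0.40 and Cyp2c11 by 1.20 ± 0.72. Single animals set these values. Without sham animal 10 the Cyp2a2 difference was -0.55, and without exposed animal 20 it was -2.41. Without exposed animal 14 that of Cyp2c11 turned to -0.20.

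In males, Cyp2c11 differed by 0.22 ± 0.08 (95% interval 0.05 to 0.39, edgeR unadjusted p = 0.0156, adjusted p = 0.829), and 5 of 6 exposed males exceeded the average sham level of 4951 CPM. An exact two-sided permutation test of Cyp2c11 over all splits of the males gave p = 0.0801, unadjusted. The exposed animals did not move as one. Animals 13, 15 and 23 were at 6488, 6214 and 6623 CPM, above every sham male, and animals 17, 19 and 21 at 5044, 5142 and 4708 CPM, within the sham range. Cyp2c13 set the same 3 animals highest, at 2395, 2100 and 2166 CPM, while animals 17 and 19 were below every sham male. Animal 21, at 1835 CPM of Cyp2c13, was above every sham male, unlike its place for Cyp2c11. Cyp2c7 had animals 13, 15 and 23 highest too, at 2080, 2065 and 2523 CPM, above every sham male.

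The mean differences of these genes in males were 0.20 ± 0.12 for Cyp2c13 (95% interval -0.04 to 0.45) and 0.17 ± 0.16 for Cyp2c7 (-0.17 to 0.52). The remaining values were 0.16 ± 0.13 for Cyp2a1, 0.12 ± 0.08 for Cyp2a2, 0.10 ± 0.15 for Cyp2c22, -0.03 ± 0.09 for Cyp3a2 and -0.21 ± 0.34 for Cyp2c12. The median over the 8 members was 0.14, beside 0.0034 over all genes tested. The widest interval was that of Cyp2c12, from -0.96 to 0.54, the narrowest that of Cyp2c11.

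**Figure D4:**
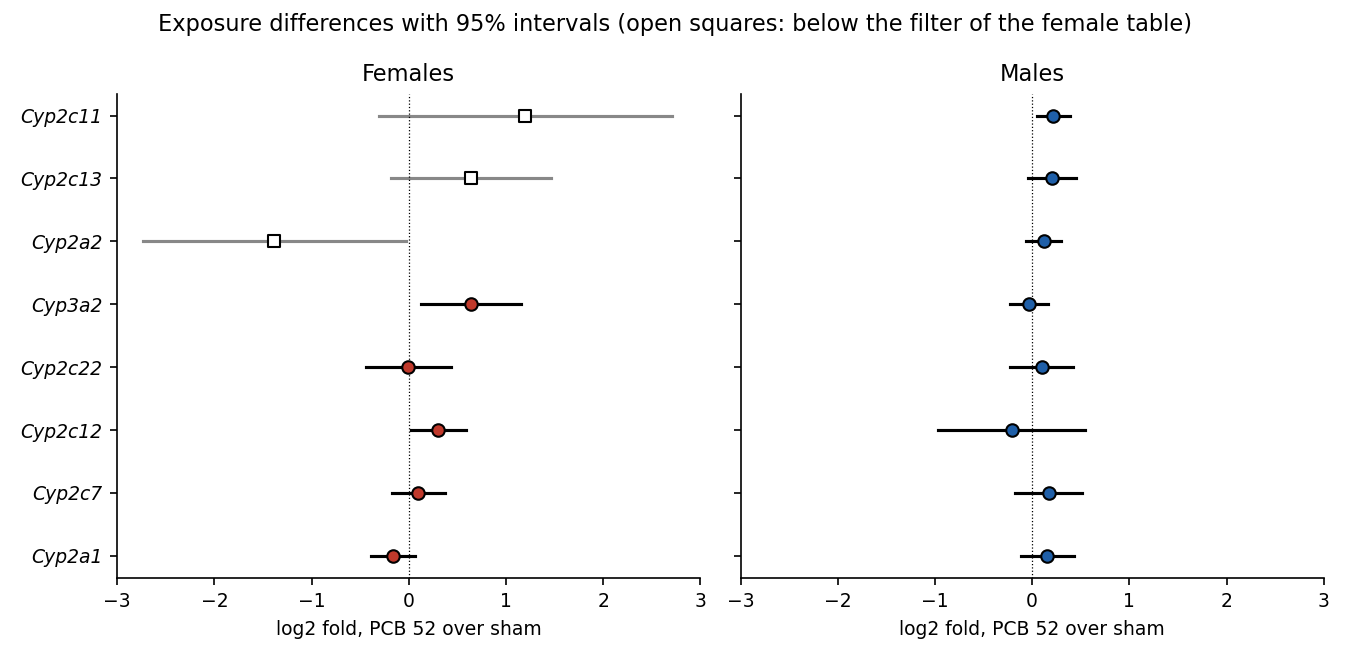
Log2 difference between PCB 52 and sham rats for each member in females (left) and males (right), with 95% intervals; open squares are members below the filter of the female table, fitted on all 24 libraries. No member passed the adjusted threshold, and the 3 male-pattern genes with few counts in females have the widest intervals there.

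Whether the response differed between the sexes was tested in 1 fit of all libraries. In that test 0 of 8 members passed (edgeR), against 0% of 10535 genes. At an unadjusted p below 0.05 there were 2 of 8, Cyp3a2 and Cyp2a2, against 2.27%. Cyp2a2, Cyp2c11 and Cyp2c13 were below the filter of the female table. They entered this fit through their high male counts, so the Cyp2a2 count here is no support for a difference in response. The female minus male difference in response was 0.67 ± 0.25 for Cyp3a2 (95% interval 0.17 to 1.18, edgeR adjusted p = 1.00) and -1.51 ± 0.72 for Cyp2a2. For Cyp2c12 it was 0.52 ± 0.36. Averaged over the sexes, 0 of 8 members passed, against 0% of genes, and 1 of 8, Cyp3a2, had an unadjusted p below 0.05, against 15.4%. Its average difference was 0.31 ± 0.12 (edgeR adjusted p = 0.246).

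The libraries of the exposed groups were spread more widely for some members. In males, the standard deviation of log2(CPM + 0.5) for Cyp2c11 was 0.07 in sham and 0.21 in exposed animals, 3.20 times as large. A ratio of at least that size was found for 2.33% of all genes tested in males, where the median ratio was 1.13. For Cyp2c13 the ratio was 2.84 (3.94% of genes at least as high) and for Cyp2c7 1.95 (14.3%). In females it was 2.36 for Cyp2c7 (4.80% of genes) and 2.09 for Cyp2c12 (8.00%), beside a median of 1.06. The pattern did not extend to all members: the ratio was 0.96 for Cyp2c22, 0.83 for Cyp2a2 and 1.16 for Cyp3a2 in males, and there 0.55 for Cyp2a1 and 0.50 for Cyp2c12. In females it was 1.57 for Cyp2a1, 0.86 for Cyp3a2 and 0.50 for Cyp2c22, the last with 93.4% of genes at least as high. These ratios are descriptions, chosen after the values were seen, and no test was made of them.

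Some members varied together within groups. The pairs named here were chosen among all pairs with the values known. After each group's mean log2 level was removed, Cyp2c11 correlated with the female-pattern Cyp2c7 (r = 0.79) and with Cyp2c13 (r = 0.77) over the 12 males, and Cyp2c13 with Cyp2c7 at r = 0.71. Within the 6 exposed males alone these values were 0.88, 0.79 and 0.85, and within the 6 sham males 0.31, 0.56 and -0.05. Over the 12 females, where Cyp2c11 and Cyp2c13 had few counts, the same pairs were at -0.28, 0.09 and -0.04. Cyp2c22 also varied with these genes in exposed males, at 0.97 with Cyp2c7, 0.90 with Cyp2c13 and 0.80 with Cyp2c11. In sham males those values were 0.07, 0.40 and -0.39. The neighbours Cyp2a1 and Cyp2a2, of opposite sex pattern, correlated at 0.76 over males and 0.56 over females. Cyp2c12 and Cyp2c7 correlated at 0.54 over females, with -0.20 in sham and 0.70 in exposed animals. Cyp2c12 and Cyp2a2 were at -0.63 over females, on 0 to 62 counts of Cyp2a2, with -0.14 in sham and -0.97 in exposed animals. Over males they were at -0.62, with -0.79 in sham and -0.26 in exposed animals. Cyp3a2 did not follow the Cyp2c genes in males, with r = -0.38 against Cyp2c11. Over females, where Cyp2c11 had few counts, that pair was at 0.68, with 0.84 in sham and 0.60 in exposed animals. The points of each correlation share their library and its depth.

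**Figure D5:**
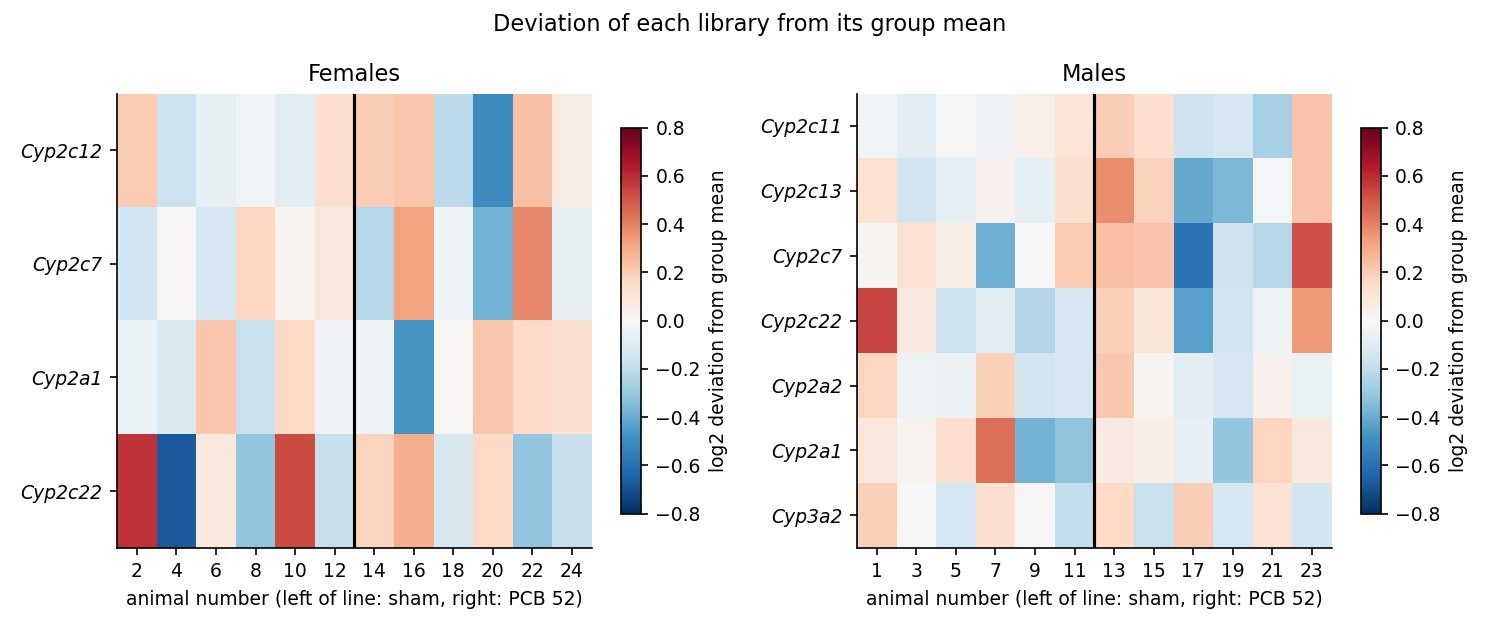
Log2 deviation of each animal from the mean of its group for the members with ample counts, in females (left) and males (right); sham animals are left of the vertical line and PCB 52 animals right of it, red is above and blue below the mean. Males 13, 15 and 23 are above the mean of exposed males for Cyp2c11, Cyp2c13 and Cyp2c7, and male 17 is below it for all 3.

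The low male level of Cyp2c12 varied with that of Onecut1. Over the 12 males its group-centred level correlated with this gene, which encodes HNF6, at r = 0.85, the highest among the 33 genes of the signalling and factor lists below, a feature singled out after the values were seen. The value was 0.88 in sham and 0.84 in exposed males, and 0.04 and 0.62 in sham and exposed females. Onecut1 was at 5.03, 42.9 and 139 CPM in sham males and 5.10, 38.1 and 72.7 in exposed males. The sham male with the least Cyp2c12 (animal 1, 27.7 CPM) also had the least Onecut1. It had the most Bcl6, a repressor that shares the STAT5 motif, at 135 CPM against a sham median of 24.7. At the high end the order of sham males differed. Animal 3 had the most Cyp2c12 (143 CPM) with 65.6 CPM of Onecut1. Animal 11 had the most Onecut1 (139 CPM) with 88.8 CPM of Cyp2c12. Bcl6 correlated with Cyp2c12 at -0.61 over the 12 males, with -0.81 in sham and -0.20 in exposed males, and Stat5b at -0.69 over the 12. The listed gene that followed Cyp2c11 most closely in males was Cebpb, which encodes a C/EBP factor, at r = -0.85 over the 12, with -0.10 in sham and -0.98 in exposed males. Cebpb too was singled out after the values were seen. The split of exposed males that follows was made by Cyp2c11 itself and is no separate support. In the exposed males with high Cyp2c11, animals 13, 15 and 23, Cebpb was at 120, 140 and 116 CPM, and in animals 17, 19 and 21 at 262, 225 and 249.3. Bcl6 was at 13.9, 10.4 and 15.3 CPM in the former and 62.5, 62.8 and 25.5 in the latter, with r = -0.58 against Cyp2c11 over the 12 males.

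The genes most like Cyp2c11 over all 24 libraries, by Pearson r of log2 CPM among 10475 named genes, were Akr1c12 (r = 0.994), Dhrs7l1 (0.991) and Enpp2 (0.990). Among those most like Cyp2c12 were Xist (0.991), the RNA of X inactivation, and A1bg (0.990). Such values mostly follow the gap between the sexes. With group means removed the closest to Cyp2c11 were Akr1c12 (0.866), Agmo (0.823) and Lynx1 (0.822). This rested on females, in which Cyp2c11 had 1 to 78 counts. On log2(CPM + 0.5), Akr1c12 correlated with it at 0.89 over females, at 0.75 without animal 14, and at 0.22 over males. Animal 14 had 43.2 CPM of Akr1c12, and no other female more than 15.4. Closest to Cyp2c12 were Arf4 (0.769), Rcan1 (0.742) and Mup4 (0.737), and on log2(CPM + 0.5) these stood at 0.87, 0.89 and 0.80 over males alone. Over females Arf4 was at 0.57 and Rcan1 at -0.0054, and Mup4 had no count in any female.

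Of the 16 growth hormone signalling genes listed, 15 were tested between the sexes. In sham rats 3 were higher in females and 2 lower, and in exposed rats 3 and 1. Prlr, the prolactin receptor, differed most, by 7.13 ± 0.45 in sham rats (365 ± 90.2 CPM in females and 2.58 ± 1.41 in males, mean ± SD, n = 6). Ghr, the growth hormone receptor, was higher by 0.37 ± 0.10 and Stat3 by 0.69 ± 0.16. Stat5b, the main STAT of the male pattern, differed by -0.03 ± 0.11 and Jak2 by 0.17 ± 0.14, and neither passed. The feedback inhibitors Cish and Socs2 did not pass either, with wide spreads (Cish 33.7 ± 32.0 CPM in sham males, mean ± SD, n = 6).

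Of 18 transcription factors of dimorphic liver expression, all tested, 4 were higher and 4 lower in sham females, and 3 and 5 in exposed females. Cux2, a female-specific repressor of male genes, was at 192 ± 73.5 CPM in sham females and 2.63 ± 2.17 in sham males (mean ± SD, n = 6), a difference of 6.15 ± 0.44. Tox and Trim24, also known as female-biased, were higher by 5.29 ± 0.37 and 4.79 ± 0.42. Nr1i3, which encodes the receptor CAR, differed by -2.16 ± 0.25 in sham rats. Onecut1 differed by 0.74 ± 0.66 in sham and 1.72 ± 0.67 in exposed rats and passed in neither (edgeR adjusted p = 0.508 and 0.0815).

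Of the other Cyp2a, Cyp2c and Cyp3a genes, 8 of 16 names were in the tables and 7 were tested. In sham rats 2 were higher in females, Cyp3a9 (2.73 ± 0.29) and Cyp2c6v1 (0.62 ± 0.13), and 3 lower, Cyp3a18 (-3.39 ± 0.22), Cyp2c24 (-2.71 ± 0.48) and Cyp3a62 (-1.97 ± 0.28). Counts in exposed rats were the same, 2 and 3. Of 8 genes of P450 electron supply and haem, 3 were higher and 2 lower in sham females and 3 and 1 in exposed females. Por, the reductase that feeds these enzymes, differed by -0.0072 ± 0.18. Of 21 other liver genes known for growth hormone patterns, 20 were tested, with 5 higher and 11 lower in sham females and 4 and 12 in exposed females. Among them were A1bg (13.54 ± 0.55), Hsd3b5 (-12.00 ± 0.26) and Ust5r (-10.93 ± 0.25).

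Between exposed and sham rats, 0 genes of these 5 lists passed in either sex (edgeR). At an unadjusted p below 0.05 there were 1 of 15 signalling genes, 7 of 17 factors, 1 of 6 P450 genes, 3 of 8 supply genes and 1 of 13 other patterned genes in females, and 1 of 15, 2 of 17, 1 of 7, 0 of 8 and 0 of 18 in males. Over all genes the share was 9.96% in females and 5.75% in males. In females the smallest p-values were those of Cyp17a1 (-1.28 ± 0.26, edgeR adjusted p = 0.284), Foxa3 (-0.48 ± 0.13, edgeR adjusted p = 0.341) and Nr1i2, which encodes the receptor PXR (-0.34 ± 0.10, edgeR adjusted p = 0.388). Por, at 473 ± 89.6 CPM in sham and 346 ± 96.5 in exposed females (mean ± SD, n = 6), differed by -0.45 ± 0.15. In males they were Cyp3a62 (0.51 ± 0.14) and Esr1, an oestrogen receptor (0.48 ± 0.14, edgeR adjusted p = 0.829 for both). The median over the factors was -0.10 in females and -0.06 in males, beside 0.0032 and 0.0034 over all genes.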

How the data were processed

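Values were raw gene counts, which the authors deposited in 1 table per sex without normalization. The submitters' processing notes name FastQC for read quality, HISAT2 for alignment and the genome build rn6. The counter, strand setting and annotation are not given in the sources used here, so overlapping, antisense and near-identical genes are uncertain. Of 15319 gene IDs, 15230 matched a RefSeq symbol (GRCr8). Totals were 6994832 to 9185511 counts, and replicate pairs gave a chi-square per degree of freedom of 7.03 or more, so no library was a duplicate. Nothing names separate litters or batches, and p-values measure the spread between these animals.

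Differences were tested with edgeR 4.0.16 in R 4.3.3 (TMM factors, filterByExpr with minimum count 10 and minimum total 15, robust quasi-likelihood fit, Benjamini-Hochberg adjustment over all genes tested, threshold 0.05). Exposure was tested within each table, and the sex contrasts, the response difference and the average in 1 fit of all 24 libraries. Intervals are 95%. The procedure was tested on simulated data, with the same spread for all genes and, apart from the changed genes, the same mean in both sexes. These members differ from that setting, so the simulation does not show how the tests perform on them. CPM uses library totals. Windows were aligned with Biopython 1.88 (global alignment with free end gaps). Alternatives used limma 3.58.1, DESeq2 1.42.0, other scalings and filters, left-out libraries and permutation.

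The members and lists were chosen with earlier results of these data known. All 8 members are named in every comparison, list genes by threshold and smallest p (up to 4), and likeness by the 3 highest correlations. Animal numbers come from the sample titles and replicate numbers only name libraries. Some genes that these rules would name are not reported here.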

Additional observations from a re-analysis of the deposited data

Results flagged for a closer look

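Of 32 groups of 6 libraries (8 genes in 4 groups), 4 had an animal far from the other 5, where chance gives about 5% of groups. Cyp2c11 in exposed females was highest in animal 14, at 9.46 CPM. Cyp2a2 was highest in sham female animal 10, at 7.78 CPM, and in exposed female animal 20, at 2.94 CPM. Cyp2c22 in sham males was highest in animal 1, at 1127 CPM, the animal with the least Cyp2c12 and Onecut1 and the most Bcl6. Of these 4, 3 are male-pattern genes at low counts in females.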

How the results depend on the processing

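All 8 members kept their sex difference under the alternatives run, in which 1659 to 2596 genes passed. In the exposure tests no member passed the adjusted threshold under any of them. Of the exact permutation tests of the 8 members in each sex, that of Cyp3a2 in females had an unadjusted p of 0.0411 and the others had larger values. The number of genes called by exposure was less stable. DESeq2 called 28 in females, 1 in males and 105 for the average of both sexes, and 1 fit of all 24 libraries called 1 in females. Leaving out 1 library gave 0 to 8 in females and 0 to 15 for the average, the highest of either without exposed female animal 20. The cause was not tested.

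Some differences changed sign. Cyp2c22 in females was 4e-04 with median-of-ratios factors, 3e-04 with DESeq2, 0.10 with limma-voom, 0.0022 in 1 fit of all libraries and 0.0487 in the permutation test. The Cyp2a1 average was 1e-04 with the CPM filter, 0.009 with limma-voom and 0.0453 without animals 13 to 16. Without those animals the larger Cyp2c11 differences also turned: Cyp2c11 was -0.42 in females, -0.58 for the response difference and -0.14 for the average, the Cyp2c12 average was -0.0528 and the Cyp2c22 average -0.0438.

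Leaving out 1 library in turn gave sign changes in these ranges: Cyp2c11 in females -0.20 to 1.81 and for the response difference -0.42 to 1.59, Cyp2c12 in males -0.39 to 0.0319 and for the average -0.0356 to 0.17, Cyp2c22 in females -0.12 to 0.14, for the response difference -0.24 to 0.0408 and for the average -0.0073 to 0.12, Cyp2c7 for the response difference -0.17 to 0.0566, Cyp3a2 in males -0.0774 to 0.0169 and the Cyp2a1 average -0.0348 to 0.0524. No paired analysis was possible because the labels number no replicates across groups. Values of Cyp2c11, Cyp2c13 and Cyp2a2 in females rest on few counts. For Cyp2c11 and Cyp2a2 the spread between animals exceeded counting error (coefficient of variation 102% against 34.3% for Cyp2c11 and 116% against 22.5% for Cyp2a2, sham females), and for Cyp2c13 it was near it (43.4% against 49.0%).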
